A study of Mus musculus with 12 samples.

Results

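Apoa1, Apoa2, Apoc2 and Apoe encode apolipoproteins, the proteins that coat the lipid particles carried in blood. They were taken by name, as 4 of the 736 rows of a metabolic gene panel, and all 4 stood above the lowest listed value in all 12 libraries. The panel uses barcoded nCounter probes, each counted on its own RNA target with no amplification step, and was run on total RNA from 12 mice, all male and of the C57BL6-NJ background. The study crossed diet with genotype in mice with early MASH, the steatohepatitis that goes with metabolic dysfunction, and asked how each alters metabolic gene expression. Each of the 4 groups held 3 mice. Wild-type (WT) mice received a control diet with normal water (ages 231 to 232 days) or a Western diet with sugar water (226 to 232 days). Mice with a constitutive knockout (KO) of SphK2, sphingosine kinase 2, received the control diet with normal water (250 to 259 days) or the Western diet with sugar water (217 to 252 days). The growth protocol gives 16 weeks of diet for all, starting at 12 to 18 weeks of age. Counted to the end of the diet, this is exceeded by the ages of all control-diet knockouts and of Western-diet knockout replicate 3 (252 days). No wild-type age exceeds it. The labels do not say whether the wild-type mice were littermates, so the genotypes may differ in more than SphK2.

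High-density lipoprotein is built around apolipoprotein A-I, the product of Apoa1, which also activates the enzyme that esterifies cholesterol on the particle. Apolipoprotein A-II, from Apoa2, is the other main structural protein of these particles. Apolipoprotein C-II, from Apoc2, is the cofactor that lipoprotein lipase needs to hydrolyse triglycerides, and apolipoprotein E, from Apoe, is the ligand by which remnant particles are taken up through receptors of the low-density lipoprotein receptor family. In mice the liver makes most of the circulating pool of these proteins, with the intestine as a further source of A-I and macrophages of E.

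Values are the authors' normalized signal, which in each library was a whole number of counts times 1 factor, with low values listed at 21. Recovered counts summed to 1138914 for replicate 3 of the Western-diet wild type and to between 1702816 and 1924846 for each other library. The lowest count of any of the 4 genes was 2250 (Apoc2 in that library), so counting error was at most 2.11% of a value. The spread between samples, which may be technical in part, set the precision. The labels name no tissue. Of 21 hepatocyte markers listed for the check, 13 had a row, and their means ran from 549 (Agxt, an enzyme of glyoxylate metabolism) to 89078 (Apoa2). Of the lists for macrophages, lymphocytes and skeletal muscle, only 1, 3 and 1 genes had a row, with means of 21.0 to 31.6, and Adgre1, C1qa and Acta2 had none, so other liver cells could hardly be followed. Of the enterocyte list, Apoa4 and Apob had rows, and their sum ran from 26608 to 32647 in Western-diet wild-type and from 48103 to 69235 in Western-diet knockout mice. Between these groups Apob overlapped (25044 to 29986 and 28265 to 29587), so the sum followed Apoa4 alone (1564 to 2662 and 19838 to 39648). On control diet the sums overlapped (27649 to 54979 in wild-type and 27566 to 63017 in knockout mice). In such bulk RNA, fewer cells of a type and less RNA per cell cannot be told apart. Rows after Cat in the table's order had levels that go against their names (the row named Gapdh was at 21 in 11 of 12 libraries), so only the 111 rows from A2m to Cat were read by gene. No row was named Sphk2, and the genotypes are therefore those of the labels. Control-diet wild-type replicate 2 and control-diet knockout replicate 2 lay apart from the others of their groups in Apoc2, Apoe and Apoa4, and the genotype results of Apoc2, Apoe and their ratios are given with and without both.

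The 4 genes lie at 3 places in the genome (RefSeq, mouse build GRCm38.p6). Apoa1 (chromosome 9, 46228630 to 46230469) is followed by Apoc3 and, 10374 bases downstream of its end, by Apoa4. Apoc2 (chromosome 7, 19671579 to 19677941, minus strand) lies 18302 bases from Apoe (chromosome 7, 19696244 to 19701310, minus strand), and Apoa2 is on chromosome 1 (171221564 to 171226379). The annotation of Apoc2 overlaps that of Gm44805 and that of Apoa2 overlaps Tomm40l. The panel's probe sequences were not used here, so whether a probe also reads an overlapping transcript was not tested. The 250 bases before the start are shown for Apoc2, Apoe and Apoa4, because these genes shared their 6 highest libraries (see the plot against Apoa4). For Apoe, which has 3 starts in the table, the one listed first was taken. Capitals mark AGGTCA, the half-site of many nuclear receptors.
Apoc2 (chr7:19677942-19678191, minus strand): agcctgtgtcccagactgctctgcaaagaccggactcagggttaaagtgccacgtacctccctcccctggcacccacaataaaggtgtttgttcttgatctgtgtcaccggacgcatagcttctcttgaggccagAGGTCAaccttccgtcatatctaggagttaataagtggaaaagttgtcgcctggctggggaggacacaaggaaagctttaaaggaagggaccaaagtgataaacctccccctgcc
Apoe (chr7:19699189-19699438, minus strand): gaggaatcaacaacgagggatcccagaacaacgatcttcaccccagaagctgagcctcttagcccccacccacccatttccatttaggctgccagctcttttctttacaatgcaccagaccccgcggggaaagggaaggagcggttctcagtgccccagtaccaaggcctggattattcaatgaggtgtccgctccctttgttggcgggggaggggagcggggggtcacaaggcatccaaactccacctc
Apoa4 (chr9:46240594-46240843, plus strand): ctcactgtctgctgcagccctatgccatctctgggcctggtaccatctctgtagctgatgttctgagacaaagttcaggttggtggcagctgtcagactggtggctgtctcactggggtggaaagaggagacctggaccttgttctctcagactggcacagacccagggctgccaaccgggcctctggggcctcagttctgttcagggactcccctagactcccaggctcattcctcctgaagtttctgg
AGGTCA (or its reverse complement TGACCT) was found once, in the Apoc2 window, beginning at position -115 from the start, and 14.0% of 32851 such windows in the table hold it. The TATA box TATAAA (in 12.4% of all windows), the GC box GGGCGG (in 32.7%) and the E-box CACGTG (in 6.02%), searched on both strands, were in none of these 3 windows. In the windows of Apoa1 and Apoa2, TATAAA was found once, at position -212 of Apoa2, and the other motifs were not found.

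Apoa1 differed little between the groups against its spread. Control-diet wild-type mice had 96996, 74444 and 60721, and control-diet knockout mice 90720, 81868 and 97328. Western-diet wild-type mice had 73985, 109866 and 93596, and Western-diet knockout mice 79212, 68028 and 81166. The 2 wild-type groups spread more widely (SD 18316 and 17966) than the 2 knockout groups (SD 7757 and 7089, n = 3 each), a difference in spread that was not tested. Group means (± SD, n = 3) were 92483 ± 17966 in Western-diet wild-type, 89972 ± 7757 in control-diet knockout, 77387 ± 18316 in control-diet wild-type and 76135 ± 7089 in Western-diet knockout mice. Each pair of neighbours in this order overlapped.

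Knockout minus wild type was a log2 fold change of 0.24 ± 0.19 (SE) on control diet and -0.27 ± 0.19 on Western diet for Apoa1, both fitted with limma over all 736 rows (adjusted p = 0.676 and 0.444). Without single libraries these ran from 0.079 to 0.42 (leaving out wild-type replicates 3 and 1 of the control diet) and from -0.42 to -0.13 (leaving out wild-type replicates 1 and 2 of the Western diet), and with median centring they were 0.075 and -0.43. The Apoa1 diet difference in wild-type mice was 0.27 ± 0.19 (limma, adjusted p = 0.905), and 0.10 to 0.44 without single libraries. The opposite signs of the genotype differences gave an interaction of -0.51 ± 0.27, which did not pass (limma, adjusted p = 0.869). In knockout mice the Apoa1 values on Western diet (68028 to 81166) all lay below those on control diet (81868 to 97328), with a log2 difference of -0.24 ± 0.19 (limma, adjusted p = 1). The gap between the nearest values of the 2 diets was narrow, and 3.67% of all rows were separated this way in that comparison.

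Apoa2 was the steadiest of the 4 in control-diet wild-type mice, with 100379, 96769 and 96477. Control-diet knockout mice had 75247, 108209 and 74780, Western-diet wild-type mice 82173, 97510 and 72325, and Western-diet knockout mice 90748, 104077 and 70234. Replicate 2 was the highest of its group in all groups but the control-diet wild type. Replicate numbers only follow the order of the samples, so this links no mice. Means were 97875 ± 2174, 88353 ± 17048 (Western-diet knockout), 86079 ± 19167 (control-diet knockout) and 84003 ± 12692 (Western-diet wild type), and neighbours overlapped.

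No comparison of Apoa2 passed. The genotype difference was -0.21 ± 0.19 on control diet and 0.06 ± 0.19 on Western diet (log2 ± SE, limma, adjusted p = 0.685 and 0.923). The diet difference was -0.23 ± 0.19 in wild-type and 0.04 ± 0.19 in knockout mice (limma, adjusted p = 0.96 and 1). The Western-diet genotype difference of Apoa2 turned to -0.098 when each library was centred on its median, and the control-diet one to 0.14 with age as a covariate, neither of which passed.

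**Figure D1:**
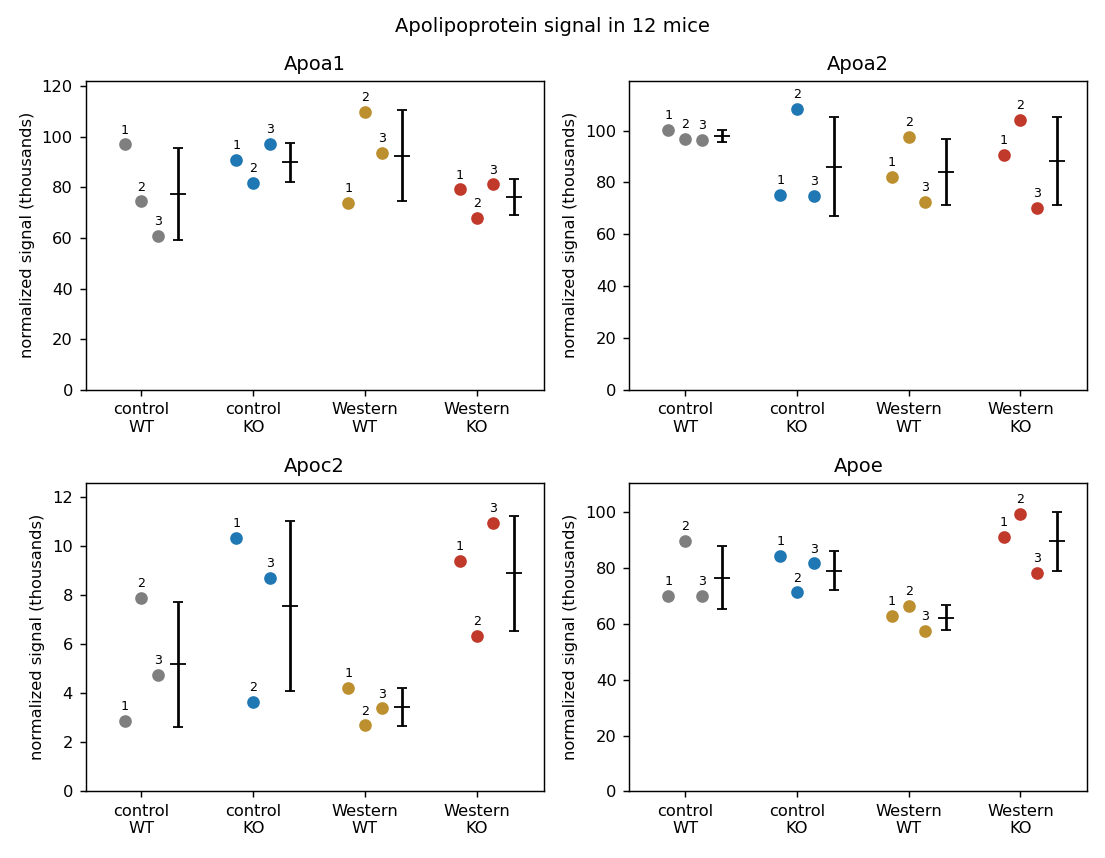
Normalized signal of Apoa1, Apoa2, Apoc2 and Apoe in each mouse, by diet and genotype; points are mice with their replicate number, and bars to the right are the mean ± SD (n = 3). Apoc2 and Apoe were higher in all 3 Western-diet knockout mice than in any Western-diet wild-type mouse, whereas Apoa1 and Apoa2 overlapped.

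Apoc2 varied most of the 4, from 2690 to 10925 over the 12 mice, a 4.06-fold range that was wider than in 94.8% of the 538 rows above 21 in every library. For Apoa1, Apoa2 and Apoe the highest value was 1.81, 1.54 and 1.73 times the lowest. On Western diet, Apoc2 was 9376, 6333 and 10925 in knockout mice and 4229, 2690 and 3384 in wild-type mice. All 3 knockout values lay above all 3 wild-type values, with means of 8878 ± 2336 and 3434 ± 771. On control diet it was 10320, 3653 and 8687 in knockout and 2875, 7900 and 4742 in wild-type mice. There the groups overlapped: knockout replicate 2 stood among the wild-type values and wild-type replicate 2 was near the knockout values.

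The fitted genotype difference of Apoc2 on Western diet was 1.36 ± 0.47 (log2 ± SE, 2.56-fold), which missed the threshold (limma, adjusted p = 0.161). On control diet it was 0.53 ± 0.47 (adjusted p = 0.685), and averaged over diets 0.95 ± 0.33 (adjusted p = 0.165), both from the same limma fit. The control-diet value of Apoc2 turned on single libraries: it was 0.17 without wild-type replicate 1, 0.24 without knockout replicate 1, 0.90 without wild-type replicate 2, 0.99 without knockout replicate 2 and 1.36 ± 0.35 without both replicates 2 (limma, adjusted p = 0.0902), and none of these passed. The averaged difference passed without control-diet knockout replicate 2 (1.18 ± 0.28, limma, adjusted p = 0.0366), in a fit that called 132 of all 736 rows. Without replicate 2 of both control-diet groups, it was 1.36 ± 0.23 averaged (limma, adjusted p = 0.0125) and 1.36 ± 0.29 on Western diet (limma, adjusted p = 0.0487). With both left out, 155 of the 736 rows were called averaged and 37 on Western diet. Both libraries were singled out by their values, and dropping them removes spread by construction, so these are not independent tests.

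Diet did not separate the groups in Apoc2. The mean was 3434 ± 771 on Western and 5172 ± 2540 on control diet in wild-type mice, and 8878 ± 2336 and 7554 ± 3475 in knockout mice. The log2 differences were -0.49 ± 0.47 and 0.33 ± 0.47, and their difference, the interaction, was 0.82 ± 0.67 (limma, adjusted p = 0.97, 1 and 1). In wild-type mice, leaving out replicate 2 of the control-diet group gave a diet difference of -0.13, and leaving out its replicate 1 gave -0.86. In knockout mice it was -0.13 without control-diet knockout replicate 2. The interaction came to 0.37 on leaving out replicate 2 of the control-diet knockouts, 0.46 on leaving out that of the control-diet wild types and -0.00030 without both.

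Apoe had the smallest unadjusted p of the 4 genes for genotype on Western diet. It was 91253, 99385 and 78267 in knockout and 63000, 66391 and 57512 in wild-type mice on this diet, so that each knockout value lay above each wild-type value. The log2 fold change was 0.52 ± 0.12 (SE, 1.43-fold), with an unadjusted p of 0.00257 and an adjusted p of 0.0861 in limma's fit of all rows, so it did not pass. Without control-diet wild-type replicate 2, whose value enters only through the pooled spread, the same 0.52 had an SE of 0.10 and passed (limma, adjusted p = 0.0464). It passed likewise without replicate 2 of both control-diet groups (limma, adjusted p = 0.0309). The first of these fits called 21 of all 736 rows for genotype on Western diet, and the second 37. Both libraries were singled out by values that include Apoe, so neither fit is an independent test. With each library centred on its median, the Apoe difference was 0.36 ± 0.16 (limma, adjusted p = 0.257), since knockout libraries had medians 0.16 (log2) above those of wild-type libraries on this diet.

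On control diet Apoe was 84448, 71313 and 81683 in knockout and 70195, 89643 and 69974 in wild-type mice, a log2 difference of 0.05 ± 0.12 (limma, adjusted p = 0.903). As in Apoc2, knockout replicate 2 lay near wild-type replicates 1 and 3, and wild-type replicate 2 was above all knockout values. This control-diet difference of Apoe turned to -0.11 with median centring and was 0.24 ± 0.11 without both replicates 2 (limma, adjusted p = 0.212). Averaged over diets it was 0.29 ± 0.09 (limma, adjusted p = 0.149), 0.12 with median centring, 0.32 without control-diet knockout replicate 2 (limma, adjusted p = 0.047) and 0.38 without replicate 2 of both control-diet groups (limma, adjusted p = 0.0189). Those leave-out fits called 132 and 155 of all 736 rows averaged over diets, and they too are not independent tests.

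In wild-type mice Apoe was lower on Western diet (57512 to 66391) than on control diet (69974 to 89643), with no overlap, and the log2 difference was -0.29 ± 0.12 (unadjusted p = 0.0455, adjusted p = 0.712 in limma's fit). It was -0.17 without control-diet wild-type replicate 2, the highest of the 6. In knockout mice the sign was opposite, 0.18 ± 0.12, and the groups overlapped (limma, adjusted p = 1). The interaction of diet and genotype for Apoe was 0.47 ± 0.18 (unadjusted p = 0.0272, adjusted p = 0.742 in limma's fit), 0.29 with age as a covariate and 0.28 without replicate 2 of both control-diet groups.

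The group means of Apoc2 and Apoe stood in the same order: Western-diet knockout, control-diet knockout, control-diet wild type and Western-diet wild type. For Apoe these were 89635 ± 10651, 79148 ± 6925, 76604 ± 11293 and 62301 ± 4480, and only the last step, control to Western diet in wild-type mice, was between groups that did not overlap. For Apoc2 each pair of neighbours overlapped.

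**Figure D2:**
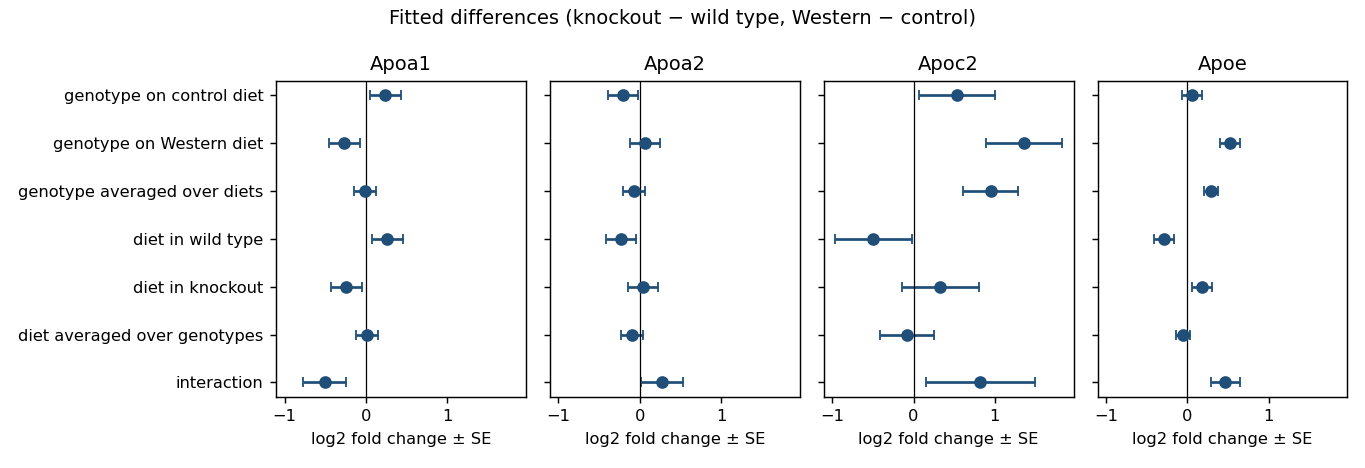
Log2 fold changes (horizontal axis, ± SE from limma, n = 3 mice per group) of the 4 genes in 7 comparisons; genotype is knockout minus wild type, diet is Western minus control, and the interaction is the Western-diet minus the control-diet genotype difference. Apoc2 and Apoe lay right of 0 for genotype on Western diet (1.36 and 0.52), and none of the values passed the adjusted threshold.

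The comparisons share groups, so their values are not independent. Over all 736 rows limma called 1 row for genotype on Western diet (0.136%, and 154 rows at an unadjusted p under 0.05), and 0 of the 4 genes. For genotype on control diet it called 0 rows (0%, with 35 rows at an unadjusted p under 0.05), and for diet in wild-type and in knockout mice 0 rows (0%, with 49 and 17). For the 2 averages and the interaction it also called 0 rows (188 for genotype, 18 for diet and 44 for the interaction at an unadjusted p under 0.05). On Western diet, 2 of the 4 genes were higher in knockout mice with no overlap, as were 14.5% of all rows. On control diet, none of the 4 separated the genotypes, against 6.66% of all rows in either direction. In wild-type mice, 1 of the 4 was lower on Western diet with no overlap, against 6.66% of all rows, and in knockout mice 1 of the 4, against the 3.67% given above. Except for genotype on control diet, each share counts only the direction that the genes took. The shares are over all 736 rows, of which 538 were above 21 in every library, as all 4 genes were. The median log2 fold change of the 4 genes for genotype on Western diet was 0.29, against 0.03 over all rows. For diet in wild-type mice it was -0.26, against -0.01 over all rows. Both medians join values of opposite sign. For genotype on Western diet the 4 ran from -0.27 (Apoa1) to 1.36 (Apoc2), with 5th and 95th percentiles of all rows at -0.50 and 0.91. For diet in wild-type mice they ran from -0.49 (Apoc2) to 0.27 (Apoa1), with those percentiles at -0.42 and 0.28.

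Ratios between these genes within a library do not depend on how libraries were scaled. Levels of different genes rest on different probes, so only differences of a ratio between mice are read. The ratio of Apoa2 to Apoe was 0.994, 1.05 and 0.897 in Western-diet knockout mice and 1.30, 1.47 and 1.26 in Western-diet wild-type mice, with no overlap. On control diet it was 0.891, 1.52 and 0.915 in knockout and 1.43, 1.079 and 1.38 in wild-type mice. Replicate 2 of each group was again on the other group's side.

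Averaged over diets, the log2 ratio of Apoa2 to Apoe was 0.36 lower in knockout mice (-0.36, exact two-sided permutation p = 0.05, 0.225 after Benjamini-Hochberg adjustment over 12 ratio tests). Genotypes were permuted within each diet, which gives 400 arrangements and a smallest p of 0.005. The ratio of Apoa2 to Apoc2 differed by -1.02, that of Apoa1 to Apoc2 by -0.96 and that of Apoc2 to Apoe by 0.66 (exact permutation p = 0.055, 0.065 and 0.075, adjusted p = 0.225 each), and none passed. Apoa1 to Apoe differed by -0.30 and Apoa1 to Apoa2 by 0.06 (exact permutation p = 0.225 and 0.805). Without replicate 2 of both control-diet groups, the log2 differences were -0.55 for Apoa2 to Apoe, -1.52 for Apoa2 to Apoc2 and -1.35 for Apoa1 to Apoc2 (exact permutation p = 0.0167, adjusted p = 0.0667 each), 0.98 for Apoc2 to Apoe (exact permutation p = 0.0333, adjusted p = 0.10) and -0.37 for Apoa1 to Apoe (exact permutation p = 0.167, adjusted p = 0.40). None of them passed after adjustment, and 0.0167 is the smallest p that test allows. Both libraries were singled out by values that include Apoc2 and Apoe, and each of these ratios contains Apoc2 or Apoe. These are therefore not independent tests. For diet, the 6 log2 ratios differed by -0.04 to 0.11 (exact permutation p = 0.65 to 0.96).

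On Western diet the ratio of Apoa1 to Apoc2 was 8.45, 10.7 and 7.43 in knockout and 17.5, 40.8 and 27.7 in wild-type mice. Apoa1 to Apoe was 0.868, 0.684 and 1.04 in knockout and 1.17, 1.65 and 1.63 in wild-type mice. Both ratios, and that of Apoa2 to Apoc2, separated these groups without overlap, whereas Apoc2 to Apoe and Apoa1 to Apoa2 did not. With 3 mice against 3, an exact permutation test cannot go below p = 0.10, and these single-diet differences of ratios were not tested.

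**Figure D3:**
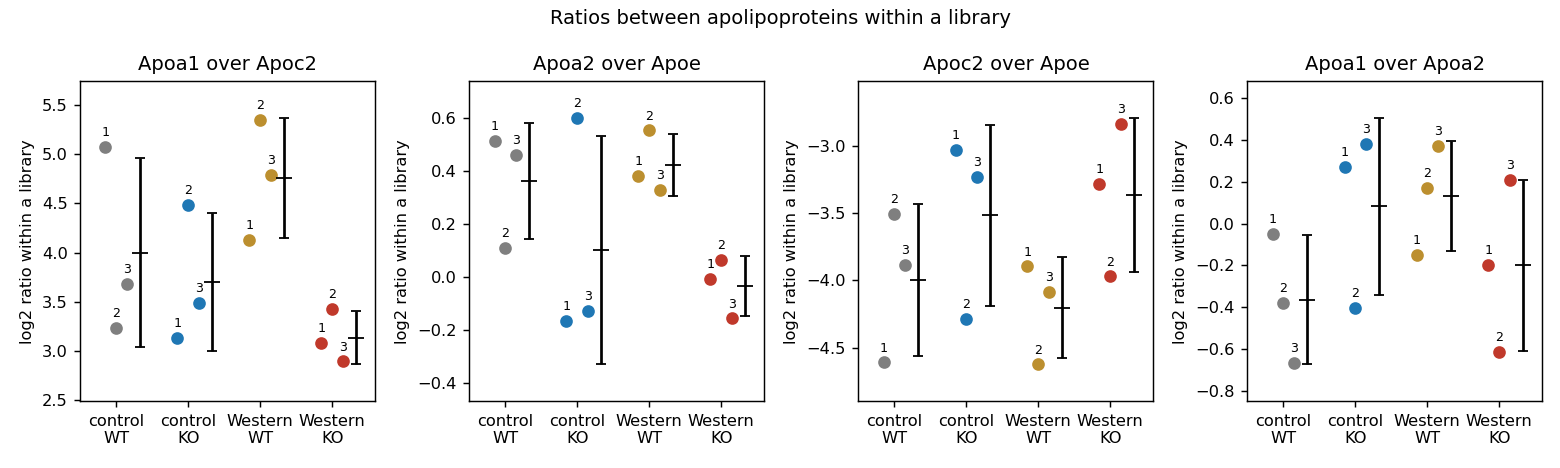
Log2 ratio of 2 genes within a library (vertical axis), by group; points are mice with their replicate number, and bars are the mean ± SD (n = 3). Apoa1 over Apoc2 and Apoa2 over Apoe were lower in all 3 Western-diet knockout mice than in any Western-diet wild-type mouse, and the control-diet groups overlapped in each ratio drawn.

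The 4 genes together held 13.1% to 15.9% of a library's summed signal (mean 14.5% ± 1.04, SD, n = 12). Group means were 14.6% ± 1.37 in control-diet wild-type, 14.96% ± 0.72 in control-diet knockout, 14.1% ± 1.55 in Western-diet wild-type and 14.4% ± 0.81 in Western-diet knockout mice. Relative to the rows from A2m to Cat alone, the share in control-diet knockout mice (35.8%, 36.2% and 37.9%) lay above that in control-diet wild-type (35.7%, 34.9% and 31.3%) and in Western-diet knockout mice (35.1%, 33.2% and 34.4%) with no overlap, which was not so over all rows. Neither share was tested. Apoc2 alone ran from 0.155% to 0.618%.

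The other genes of lipoprotein metabolism came from a list of 26, of which 5 had a row between A2m and Cat, and 0 of the 5 passed limma's test in any of the 7 comparisons. Apom, whose product binds sphingosine-1-phosphate in plasma, had, on Western diet, 2059 ± 155 with the knockout and 4924 ± 854 without it, a log2 fold change of -1.25 ± 0.27 (limma, adjusted p = 0.0824). Apob, the structural protein of very low-density lipoprotein, lay within 24881 to 29986 in all 12 libraries and had a genotype difference of 0.07 ± 0.08 on Western diet. Apoc3, an inhibitor of triglyceride clearance whose gene lies next to Apoa1, had -0.06 ± 0.11. Apoa4, the other panel gene of the Apoa1 cluster, had 3.89 ± 1.17 (limma, adjusted p = 0.146), while Apoa1 itself had the opposite sign. Apoa4 and Apob are also the 2 genes of the enterocyte list with a row, and the part of such cells in the Apoc2 and Apoe differences was not tested. Acat2, a cytosolic acetyl-CoA acetyltransferase, was the fifth.

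Apoc2 and Apoe were high in the same libraries as Apoa4. The 6 libraries highest in Apoa4 (19838 to 39648, against 1564 to 2685 in the others) were the 3 of Western-diet knockout mice, control-diet knockout replicates 1 and 3 and control-diet wild-type replicate 2. The same 6 were the 6 highest in Apoc2 (at least 6333, against at most 4742) and in Apoe (at least 78267, against at most 71313), and the 6 lowest in Apom (at most 2208, against at least 2947). Of the 538 rows above 21 in every library, 33 (6.13%) had these 6 libraries highest and 24 (4.46%) had them lowest. Apoa1 and Apoa2 were in neither set.

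Because the libraries fell into these separate sets, relations were tested within each set. Within the upper 6, Apoc2 against Apoa4 had r = 0.90 and rho = 0.77 (exact permutation p = 0.0167 and 0.103), and Apoc2 against Apoe r = -0.83 and rho = -0.71 (exact permutation p = 0.0431 and 0.136). Within the lower 6 these were r = 0.50 and rho = 0.49 (exact permutation p = 0.328 and 0.356), and r = 0.03 and rho = 0.03 (exact permutation p = 0.96 and 1). None of 10 such relations passed after Benjamini-Hochberg adjustment (smallest adjusted exact permutation p = 0.167). Both sets are also the upper and lower 6 of Apoc2 and of Apoe, which narrows the range within each, so these tests say little of a relation over the whole range. Each set also mixes diets and genotypes, which the permutation did not keep apart, so group differences enter these values. Over all 12 libraries, Apoc2 against Apoe had r = 0.73 and rho = 0.67. These values carry the split into both sets and are given as a description.

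**Figure D4:**
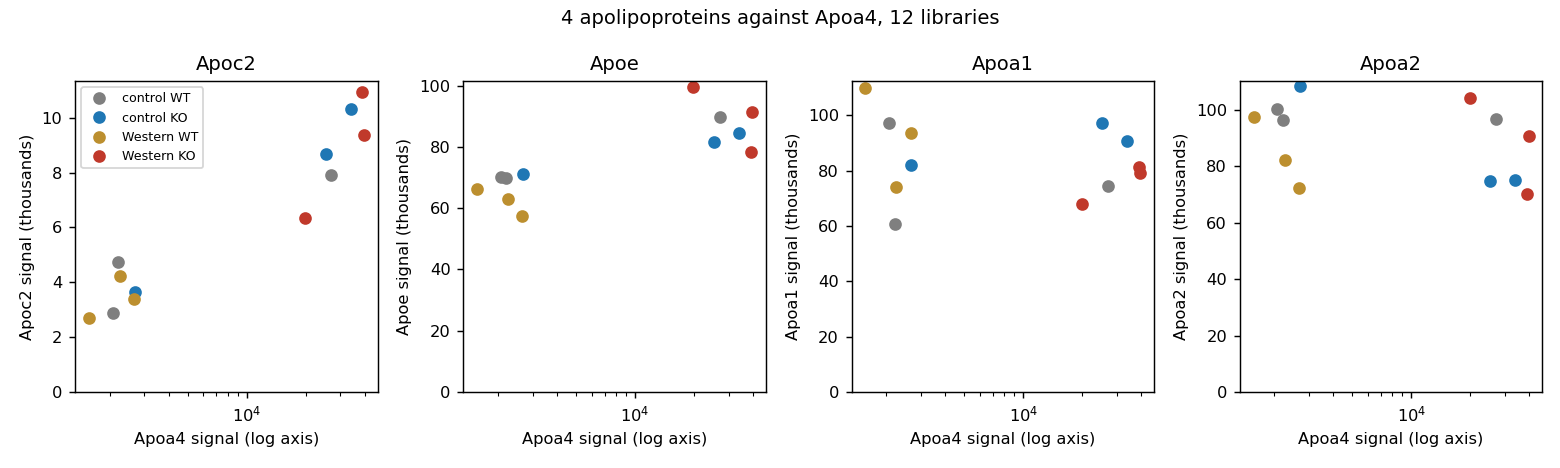
Signal of Apoc2, Apoe, Apoa1 and Apoa2 against Apoa4 signal (log axis) in 12 libraries, coloured by group. The 6 libraries at or above 19838 in Apoa4 held the 6 highest values of Apoc2 and of Apoe, while Apoa1 and Apoa2 overlapped between both sets.

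Each gene's nearest patterns were sought among the 77 other rows from A2m to Cat that were above 21 throughout, by Pearson correlation of log2 values over the 12 libraries, as a description. The r values of libraries of 4 groups share those groups, so the correlation of deviations from group means is given too. For Apoc2 and Apoe both values still carry the split into 2 sets, since replicate 2 of each control-diet group lies on the other side from its group. Nearest to Apoa2 were Acaa2, the mitochondrial acyl-CoA thiolase (r = 0.94, deviations 0.97), and Cat, the peroxisomal catalase (0.93, deviations 0.97). Nearest to Apoc2 were Apoa4 (0.96, deviations 0.91) and Cacng7, a calcium channel subunit (0.94, deviations 0.89). The signal of Cacng7 was only 32.45 to 102.76, near the lowest listed value of 21. Nearest to Apoe were Acot12, a cytosolic acetyl-CoA hydrolase (0.89, deviations 0.72), Agxt2, a mitochondrial aminotransferase (0.88, deviations 0.83), and Acat1, the mitochondrial acetyl-CoA acetyltransferase (0.85, deviations 0.59). Apoa1 had no close match, its nearest being Ada, adenosine deaminase, with 0.54 (deviations 0.42) at a signal of only 32.7 to 62.4.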

How the data were processed

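Total RNA extracted by the Trizol method was measured with barcoded target-specific probes of a metabolic panel, per the labels' protocols. The authors deposited a normalized signal for 736 rows in 12 libraries, while its software, reference genes and background step were not given in the sources used here. All 736 row names were symbols of the RefSeq gene table. Within each library 100% of values above 21 were within 0.1 of a whole multiple of 1 step, which gave the recovered counts. Since the floor of 21 hides lower counts, the main test was not a count model.

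log2(value + 1) was fitted by limma 3.58.1 (eBayes after lmFit, R 4.3.3) as 4 group means over 12 libraries, 8 residual and 0.705 prior degrees of freedom and 7 contrasts. Benjamini-Hochberg adjustment covered the 736 rows of a contrast, with a threshold of 0.05, and errors are limma's moderated SE. Ratios were tested by exact permutation of one factor within the other, and correlations by exact permutation (Python 3.11.15, SciPy 1.17.1, NumPy 2.4.6). The fit and the permutation were tested on simulated data. Groups came from the sample descriptions. Replicate numbers follow sample order and pair nothing. Nothing beyond the samples' titles says that they are separate mice, so p-values measure the spread between these samples, which may be technical. Labelled diet durations rise by 1 week from library to library (16 to 27 weeks), whereas the growth protocol gives 16 weeks, so they were not used. Control-diet knockout mice were older than control-diet wild-type mice, so age and genotype cannot be told apart there.

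The genes named are the 4 apolipoproteins, the lipoprotein list and rows among the 3 nearest to each, of which some are not reported here. The members, lists and libraries left out were chosen with earlier results of these data known. Upstream windows are those of the RefSeq promoter table (GRCm38.p6). Alternatives were 2 scalings, log2(value + 10), 2 row filters, array weights, a robust fit with an intensity trend, age or position as a covariate, only the groups compared, each library left out, and replicate 2 of both control-diet groups left out. limma voom on the recovered counts of the 538 rows above 21 throughout was added after the data were seen.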

Additional observations from a re-analysis of the deposited data

How the results depend on the processing

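Under alternatives, 73 of 844 values changed sign, 14 came to pass the threshold and 4 shares moved. No value of the 4 genes passed to begin with, so none could be lost, and leaving out a library of other groups leaves a difference as it was, so the remaining count is no measure of stability. Values are log2 differences unless a percent, and causes were not tested. No sign change passed a test. Genotype on Western diet stayed above 0 for Apoc2 and Apoe under all alternatives. All knockout values of both genes lay above all wild-type values on this diet. Leaving out libraries, array weights, row filters or another pseudocount could therefore not turn these signs.

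With array weights, which had not converged (weights 0.187 to 8.79), calls were gained for Apoc2 genotype on control diet (1.22), on Western diet (1.25) and averaged (1.23), for Apoe on Western diet (0.53) and averaged (0.35), and for Apoa2 on control diet (-0.37). Of all 736 rows, this setting called 222 for genotype on control diet, 344 on Western diet and 393 averaged, so these calls are not particular to the 4 genes. Signs turned for Apoa1 diet averaged (-0.17), diet in wild type (-0.076) and genotype averaged (0.083), and for Apoc2 diet averaged (0.073) and in wild type (0.057). Over the rows A2m to Cat alone, Apoe on Western diet passed (0.52), as 1 of 8 rows called among the 111. The 4 genes' share of these rows was 33.9%, 36.7%, 33.7% and 34.2% in control-diet wild-type, control-diet knockout, Western-diet wild-type and Western-diet knockout mice.

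Leaving out replicate 2 of both control-diet groups gave calls for Apoc2 (1.36 averaged, 1.36 on Western diet) and Apoe (0.38 averaged, 0.52 on Western diet). Over the panel it called 155 of 736 rows averaged and 37 on Western diet. Both libraries were singled out by values that include these 2 genes, so these calls are not independent tests. Leaving out both also turned Apoa1 diet averaged (-0.029) and genotype averaged (0.013), Apoc2 diet in knockout (-0.13) and interaction (-0.00030), and the diet differences of the ratios Apoa1 to Apoa2 (-0.018), Apoa2 to Apoc2 (0.12) and Apoa2 to Apoe (0.024).

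Age as a covariate turned Apoa2 diet in knockout (-0.33), genotype averaged (0.12) and on control diet (0.14) and interaction (-0.049), Apoc2 diet averaged (0.17) and Apoe diet in knockout (-0.029). Position turned genotype averaged for Apoa1 (0.027) and Apoa2 (0.042). Median centring turned Apoa2 on Western diet (-0.098) and Apoe on control diet (-0.11). Scaling to the other rows turned Apoa1 diet averaged (-0.0031), Apoa2 diet in knockout (-0.019) and genotype on Western diet (-0.017). limma voom, chosen after seeing the data, turned Apoa2 diet in knockout (-0.0097) and genotype on Western diet (-0.020).

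Without each library in turn, genotype averaged ran from 0.76 to 1.18 for Apoc2, from 0.25 to 0.35 for Apoe, from -0.094 to 0.075 for Apoa1 and from -0.16 to 0.0069 for Apoa2. On Western diet it ran from 0.44 to 0.61 for Apoe and from -0.063 to 0.22 for Apoa2, and on control diet from -0.0070 to 0.17 for Apoe and from 0.17 to 0.99 for Apoc2. Diet averaged ran from -0.069 to 0.10 for Apoa1, from -0.31 to 0.10 for Apoc2 and from -0.096 to 0.0020 for Apoe, and diet in knockout from -0.086 to 0.22 for Apoa2 and from -0.13 to 0.62 for Apoc2. Apoc2 diet in wild type ran from -0.86 to -0.13. Diet differences of ratios ran from -0.015 to 0.21 (Apoa1 to Apoa2), -0.095 to 0.36 (Apoa1 to Apoc2), -0.0024 to 0.19 (Apoa1 to Apoe), -0.20 to 0.31 (Apoa2 to Apoc2), -0.11 to 0.087 (Apoa2 to Apoe) and -0.22 to 0.13 (Apoc2 to Apoe), and the genotype difference of Apoa1 to Apoa2 from -0.044 to 0.18.

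No paired analysis was possible because the labels give no replicate numbers. edgeR was not run, since counts under the listed floor are not in the values. Depth limits none of the 4 genes, whose counting errors are below the spread between samples.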
